A study of Mus musculus with 2 samples.

Results

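The genes described are 8 genes of the hemidesmosome and of the basal keratinocyte. They are the transcription factor genes Trp63 and Bnc1, the hemidesmosome genes Col17a1, Itga6, Itgb4 and Dst, and the laminin-332 chain genes Lama3 and Lamb3. They were chosen by name, with earlier results of these data known, and every probe set whose platform annotation names 1 of them and no other gene was taken. That gave 16 of 34945 single-gene probe sets, and 8 of the 18193 genes named on the array. The arrays held RNA labelled as cerebral cortex from 1 Sox11(-/-) mouse embryo and 1 Sox11(+/+) littermate at E17.5. Both came from a cross of Sox11(+/-) parents, the background was C57BL/6 and 129, and no treatment is given. Sox11 encodes a SoxC transcription factor, and the comparison asks which genes differ in the cortex without it. With 1 array of 1 embryo per genotype, no gene was tested and every difference is one between 2 RNA samples.

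Basal keratinocytes are the dividing cells of stratified epithelia that rest on the basement membrane. They are held there by hemidesmosomes, in which integrin α6β4 and type XVII collagen span the membrane, plectin and the epithelial form of dystonin tie them to keratin filaments inside, and laminin-332 receives them outside. The p63 protein, encoded by Trp63, keeps the basal state of these epithelia. Several of these genes also work elsewhere. Itga6 is used by neural progenitors and blood vessels, Itgb4 by Schwann cells and perineurial cells, and Dst gives long neuronal and muscle forms. Cerebral cortex has no stratified epithelium.

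Both libraries carried signals of several tissues. All 6 cortical neuron markers and all 5 radial glia markers lay above the array median on both arrays, as did all 5 skeletal muscle markers and all 4 basal keratinocyte markers named on the array. So did 7 of 9 markers of the layers above the basal one and 4 of 6 enamel and salivary gland markers. Of these, Bpifa2 gave 17131 in the null and 21963 in wild type. In tissue RNA, fewer cells of a type and less RNA per cell cannot be told apart. All 6 Sox11 probe sets were lower in the null, at 16.4% to 47.8% of the wild-type signal. The labels do not say which of them read the deleted sequence, so they check the genotype only in part. RNA integrity can be read from the control probe sets of beta-actin, whose 3' signal was 1.16 times the 5' signal in the null library and 1.78 times in wild type. For Gapdh the ratios were 0.816 in the null and 0.922 in wild type. The part of RNA integrity in the differences below was not tested. None of the 8 genes lies on chromosome X or Y.

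None of the 8 genes, each read by its brightest probe set, lay beyond 1.5-fold in either direction between the Sox11-null and the wild-type library. Over the 12390 measured genes, 3.24% had signals lower by 1.5-fold or more in the null library and 3.07% had signals higher by that much. A gene counted as measured when its brightest probe set reached the array median on at least 1 array (177.4 in the null, 177.5 in wild type). All 8 genes did so. For 7 of them both arrays reached it, and Bnc1 passed through the wild-type array alone. Of the 8 differences 6 were below 0, against 50% of the measured genes, and their median was -0.12 on the log2 scale. All measured genes had a median of 0 by construction, with quartiles at -0.17 and 0.17. At the level of probe sets, 12 of the 16 were measured, and 1 of the 12 lay beyond 1.5-fold, a Dst probe set that was higher. Of all measured single-gene probe sets, 7.26% were that much higher and 3.48% that much lower.

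**Figure D1:**
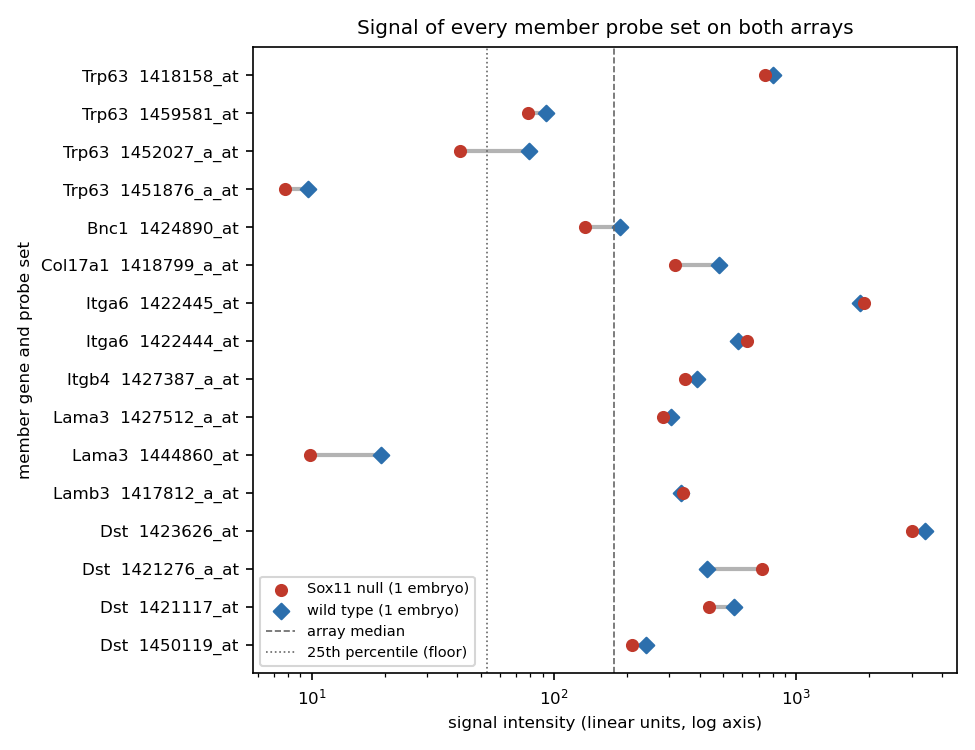
Signal intensity (log axis) of all 16 probe sets of the 8 genes on the Sox11-null array (circles) and the wild-type array (diamonds), with a line joining the 2 values and vertical lines at the array median and the floor. Among pairs right of the floor line the gaps of Col17a1 and Bnc1 run to lower null values. The widest gaps are those of Lama3 1444860_at, left of the floor on both arrays, and Trp63 1452027_a_at, left of it in the null, and Dst 1421276_a_at is the pair with a clearly higher null value.

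Col17a1 and Bnc1 had the lowest differences among the 8 genes, and Dst had probe sets that disagreed, so sequences before their starts are shown. RefSeq's table for GRCm38.p6 held start regions of 4 of the 8 genes, in 6 windows. The 250 bases before the start are printed for Col17a1 (chr19:47692043-47692292, minus strand), Bnc1 (chr7:81992300-81992549, minus strand) and 2 starts of Dst (chr1:34011345-34011594 and chr1:34160010-34160259, plus strand). Capitals mark matches, on either strand, to the TATA box TATAAA, the GC box GGGCGG, the Sox cores ACAAAG and ACAATG, the AP-1 site TGANTCA and the p53 family half-site. The motifs were chosen with the values known.
Col17a1: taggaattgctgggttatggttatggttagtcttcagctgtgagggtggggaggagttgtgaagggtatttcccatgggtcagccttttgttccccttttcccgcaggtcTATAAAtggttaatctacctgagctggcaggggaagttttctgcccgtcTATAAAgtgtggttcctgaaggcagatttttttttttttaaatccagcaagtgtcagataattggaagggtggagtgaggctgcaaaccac
Bnc1: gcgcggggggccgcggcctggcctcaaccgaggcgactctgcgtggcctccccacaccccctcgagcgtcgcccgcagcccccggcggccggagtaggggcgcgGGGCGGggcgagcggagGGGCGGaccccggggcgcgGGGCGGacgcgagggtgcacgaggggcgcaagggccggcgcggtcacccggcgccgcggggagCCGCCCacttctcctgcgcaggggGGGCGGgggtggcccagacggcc
Dst, upstream start: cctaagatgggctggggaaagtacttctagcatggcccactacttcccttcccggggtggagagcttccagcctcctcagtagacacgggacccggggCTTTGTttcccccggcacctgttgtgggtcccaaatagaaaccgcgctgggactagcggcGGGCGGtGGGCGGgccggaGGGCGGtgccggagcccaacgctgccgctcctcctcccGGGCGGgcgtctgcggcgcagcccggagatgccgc
Dst, downstream start: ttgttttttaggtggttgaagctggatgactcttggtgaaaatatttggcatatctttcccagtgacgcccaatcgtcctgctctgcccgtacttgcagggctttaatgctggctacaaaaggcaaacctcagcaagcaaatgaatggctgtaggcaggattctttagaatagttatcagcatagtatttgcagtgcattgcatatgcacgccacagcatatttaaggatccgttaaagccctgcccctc

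The windows differed in composition. The Col17a1 window was 46% G and C and held 2 TATAAA matches, 140 and 91 bases before the start. The Bnc1 window was 83.6% G and C and held 5 GC boxes. The upstream Dst window was 68.8% G and C, with 4 GC boxes and 1 Sox core 152 bases before the start, and the downstream one was 45.2% G and C with no match. Neither of the adjoining Lamb3 windows held a match. Among all 32851 windows of this length, 12.4% held TATAAA, 32.7% a GC box, 16.5% the Sox core ACAAAG, 10.7% ACAATG, 6.75% the AP-1 site and 7.13% the p53 family half-site. The median window was 52.4% G and C. No AP-1 site or p53 family half-site matched in the 6 windows, which says only that these letters are not in these 250 bases.

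Of the transcription factor genes, Trp63 differed little. Its brightest probe set, 1418158_at, gave 746 in the null library and 802 in wild type, a log2 difference of -0.083, and 36.6% of measured genes were at or below that. The other 3 Trp63 probe sets lay below the array median on both arrays. They gave 78.1 in the null library and 92.7 in wild type (1459581_at), 41.0 and 79.2 (1452027_a_at), and 7.78 and 9.69 (1451876_a_at), in the same order. The null value of 1452027_a_at and both values of 1451876_a_at were below the floor, the 25th percentile of each array (52.5 in the null, 52.9 in wild type), so they give no usable fold. All 4 Trp63 probe sets had the lower value in the null library, but only 1418158_at was measured, so this is not read as agreement. The files do not say which p63 isoforms each probe set reads.

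Bnc1 encodes basonuclin, a zinc finger protein of basal keratinocytes and germ cells. Its 1 probe set, 1424890_at, gave 134 in the null library and 188 in wild type. The difference was -0.47 (1.38-fold lower in the null), at or below which lay 5.25% of measured genes. These signals were near the array median, and when the measured genes were split by level into 3 groups of 4130, Bnc1 fell in the lowest. There the central 95% of differences ran from -0.94 to 0.82. With the floor raised to the array median the Bnc1 difference was -0.061.

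Col17a1 encodes type XVII collagen, the transmembrane collagen of the hemidesmosome. It had the largest difference of the 8 genes by brightest probe set. Its 1 probe set, 1418799_a_at, gave 317 in the null library and 480 in wild type, 66.1% of the wild-type signal. The log2 difference of -0.58 (1.49-fold lower) lay just inside the 1.5-fold line, and 3.35% of measured genes were at or below it. It crossed the line without centring (-0.60), with the trend on level removed (-0.62) and with quantile normalization (-0.60). It lay inside the central 95% of its level group.

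The integrin subunits that pair in the hemidesmosome both stayed within 1.5-fold. Itga6 (α6) was at 1898 in the null library and 1839 in wild type with 1422445_at, a difference of 0.065. Its second probe set, 1422444_at, gave 629 in the null and 573 in wild type (0.15). The 2 probe sets were designed from the same source sequence, so they are not independent readings of the transcript. Itgb4 (β4) gave 349 in the null and 389 in wild type with its only probe set, a difference of -0.14. The pooled SD between measured probe sets of 1 gene was 0.39 over 5155 genes. It reflects how far different probe sets of a transcript disagree between these 2 RNA samples and gives no spread between embryos.

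The laminin-332 chains were close to equal in the libraries. Lama3 (α3), read by 1427512_a_at, was at 282 in the null and 305 in wild type, with a difference of -0.094. Its other probe set, 1444860_at, gave 9.81 in the null and 19.4 in wild type, below the floor on both arrays, and no fold is given. Lamb3 (β3) was at 342 in the null and 334 in wild type (0.055).

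Dst, which encodes the plakin dystonin, was the gene whose probe sets disagreed. The brightest, 1423626_at, gave 2997 in the null and 3402 in wild type (-0.16). Both 1421117_at, at 436 in the null and 552 in wild type (-0.32), and 1450119_at, at 211 and 239 in that order (-0.16), were also lower, and these 2 share a source transcript. The probe set 1421276_a_at, designed from another curated Dst transcript, gave 725 in the null and 427 in wild type. That is 1.72-fold higher in the null library, a difference of 0.78 that 98.8% of measured genes did not exceed. It was the only measured probe set of the 8 genes outside the central 95% of its level group (-0.49 to 0.57 in the middle group), a range taken over the brightest probe set of each gene. Probe sets that are not the brightest of their gene, as this one is, were more spread. Of the 8279 measured ones 13.5% were at least 1.5-fold higher in the null and 92.5% did not exceed 0.78. Their central 95% in the middle level group ran from -0.53 to 0.93 and held this Dst probe set. The SD over the 4 Dst probe sets was 0.51 and their mean was 0.033. The files do not pair a probe set with an epithelial, neuronal or muscle form of dystonin.

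**Figure D2:**
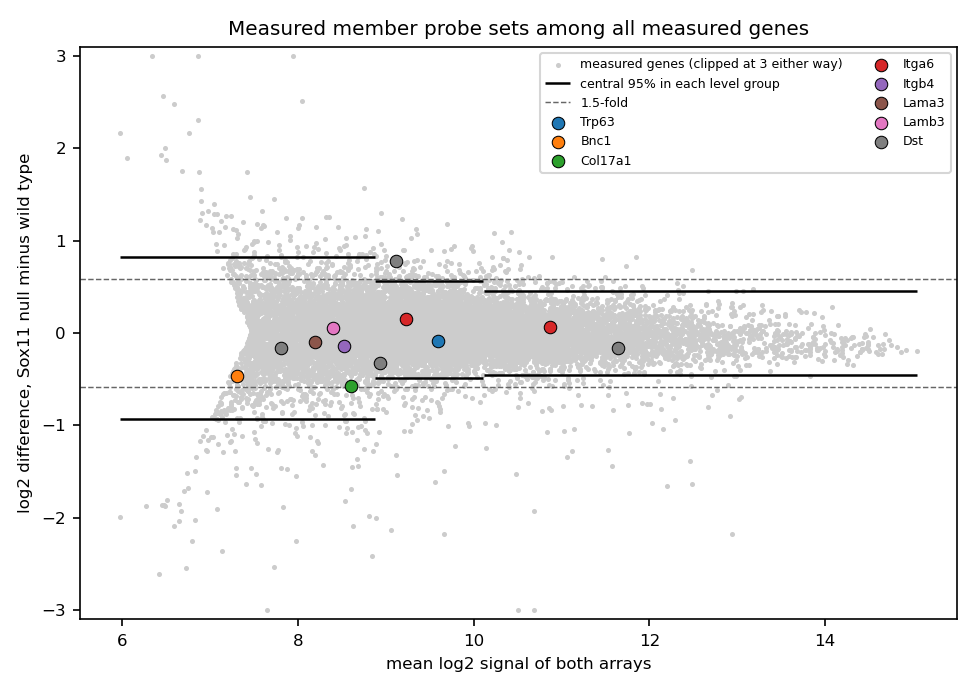
Log2 difference, Sox11 null minus wild type, against mean log2 signal for the measured genes (grey) and the 12 measured probe sets of the 8 genes (coloured), with black lines at the central 95% of 3 level groups and dashed lines at 1.5-fold. Col17a1 at -0.58 and Bnc1 at -0.47 lie inside the lines of their level group, and 1 Dst probe set at 0.78, not the brightest of its gene, lies above its own.

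Other genes of the same structure and cell layer were also within 1.5-fold. The 4 hemidesmosome partners on the array had a median of -0.23, and all 4 were below 0. The laminin-binding integrin Itga3 was at -0.42, the tetraspanin Cd151 at -0.39, anchoring fibril collagen Col7a1 at -0.067 and the linker Plec at -0.020. Other measured probe sets of Cd151 gave -0.13 to 0.071 and that of Plec gave 0.56. Of the 4 basal keratinocyte markers, Krt14 was below 0 (-0.39, and -0.21 to -0.10 with its other probe sets), and Krt5 (0.11), Krt15 (0.19) and Cdh3 (0.30) were above it. Krt5, the keratin that pairs with Krt14, gave 4737 in the null and 4461 in wild type. The summed signal of these 4 markers was 11283 in the null library and 11258 in wild type, and none was at 0.

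Of 13 listed genes reported as p63 targets, 2 were not named on the array and 2 lay below the filter. None of the 9 measured ones lay beyond 1.5-fold, and their median was -0.0040. Of all measured genes 3.24% were lower and 3.07% higher by that much. Below the filter, Dlx3 was at -0.27 and Zfp750 at -0.31, and with no filter the list median was -0.083. The membrane protein gene Perp had the lowest difference, with 1937 in the null and 2785 in wild type (-0.50). The cell cycle inhibitor gene Cdkn1a gave 2193 in the null and 2229 in wild type (-0.0040). The Notch ligand gene Jag2 was the highest at 0.33. Single other probe sets of Fgfr2 (0.76) and Fras1 (-0.97) lay beyond 1.5-fold, against -0.095 and 0.18 with the brightest.

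Markers of the layers above the basal one had larger differences in the same libraries. Of 9 such genes 8 were at least 1.5-fold lower in the null and 6 at least 2-fold lower (0.985% of measured genes were), with a median of -1.38. Of the 9 genes 7 reached the array median on both arrays, while Ivl (105 in the null, 295 in wild type) and Tgm1 (106 in the null, 197 in wild type) were measured through the wild-type array alone. When the floor was raised to the median, 7 were 1.5-fold lower. The desmosomal cadherin Dsc1 was at 253 in the null and 1130 in wild type (4.40-fold lower). It had no other measured probe set. With all its probe sets averaged, its log2 difference was -1.06 in place of -2.14. That average takes in 1 below the floor on both arrays. The floored probe set enters with almost no difference by construction and is no second reading. The granular layer gene Flg was at 836 in the null and 3224 in wild type (3.80-fold lower), and the suprabasal keratin gene Krt10 at 3229 in the null and 10189 in wild type (3.11-fold lower). The suprabasal range of -2.14 to -0.50 overlapped that of the 8 genes, -0.58 to 0.065, only at Tgm3 (-0.50) and Col17a1. With 1 array per genotype the difference between these groups of genes was not tested.

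**Figure D3:**
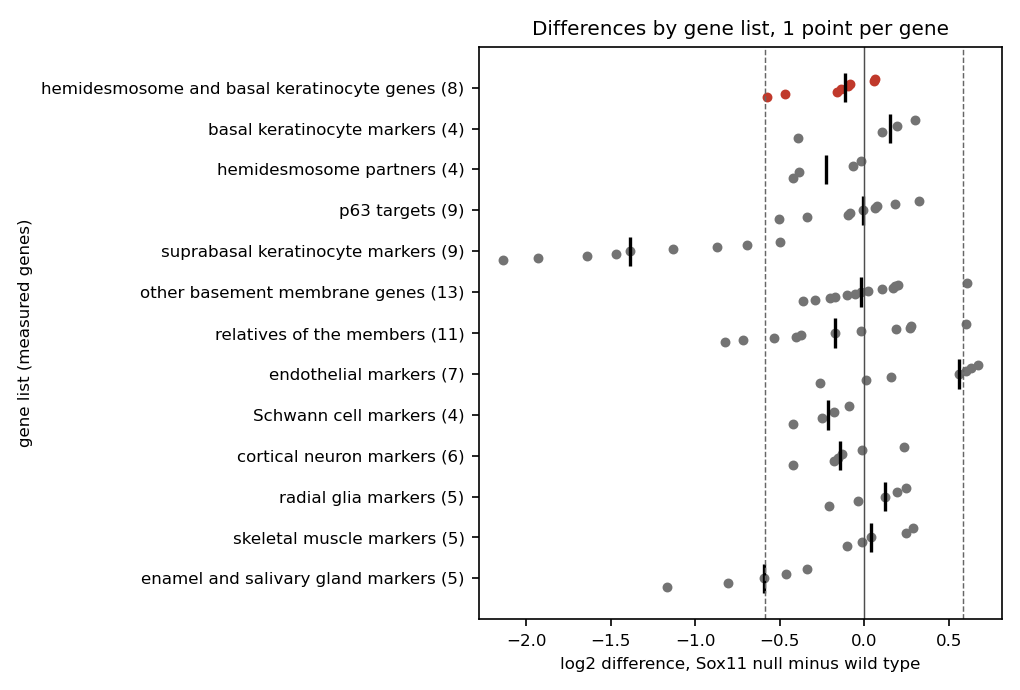
Log2 difference, Sox11 null minus wild type, of each measured gene by list, with a black bar at each list's median and dashed lines at 1.5-fold. The 8 hemidesmosome and basal keratinocyte genes (red) centre on -0.12, the basal markers on 0.15 and the suprabasal markers on -1.38.

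Relatives of the 8 genes were more spread, with 2 of 11 beyond 1.5-fold lower and 1 higher. The plakin gene Dsp, whose product anchors keratin at desmosomes, was at 3338 in the null and 6002 in wild type (-0.83, and -0.72 with its other measured probe set). The plakin genes Evpl (-0.53), Ppl (-0.40) and Macf1 (-0.018) were within 1.5-fold. Trp73, a p53 family gene of Cajal-Retzius cells, was at 151 in the null and 251 in wild type (-0.72). It was measured through the wild-type array alone. Itgb1, the other β partner of α6, was at 3522 in the null and 2350 in wild type (0.60). Itgb1 fell within 1.5-fold without centring (0.58) and without the _s_at, _x_at and _a_at probe set types (0.54). With all probe sets averaged Dsp (-0.51), Trp73 (-0.12) and Itgb1 (0.28) were all within 1.5-fold. Those averages take in probe sets below the filter, and any below the floor on both arrays enter with almost no difference by construction. Both measured probe sets of Dsp lay beyond 1.5-fold, and the other measured Itgb1 ones were at 0.51 and 0.55. With the floor at the median Trp73 was at -0.48. The basonuclin relative Bnc2 was at -0.37.

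Among 13 measured genes of the wider basement membrane the median was -0.018 and 1 gene, Lama5, was beyond 1.5-fold. This laminin chain, found in epithelial and vascular basement membranes, was at 639 in the null and 424 in wild type (0.61, and 0.98 with its other measured probe set). Its difference was 0.58 with quantile normalization and 0.56 with the trend on level removed. With all probe sets averaged it was 0.53, but that takes in 1 below the floor on both arrays. The floored probe set enters with almost no difference by construction, and both measured ones were beyond 1.5-fold. Col4a1 was at -0.17 and Lamb1 at -0.099, although other probe sets gave 0.34 for Col4a1 and 0.84 and 0.87 for Lamb1. Nid1 was at -0.055 with its brightest probe set and at 1.59 with its other measured one. Without the _s_at, _x_at and _a_at types, 2 genes of this list were beyond 1.5-fold higher.

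Markers of other cell types that can express Itga6, Itgb4 and Dst are given beside them. Of 7 endothelial markers 3 were beyond 1.5-fold higher, Tie1 (0.68), Cdh5 (0.63) and Pecam1 (0.60), and the list median was 0.56. Kdr was at 0.56, Flt1 at 0.16 (-0.38 and 0.35 with its other probe sets) and Tek at 0.011. Cldn5 was the 1 marker below 0, with 1274 in the null and 1547 in wild type (-0.26). Pecam1 was within 1.5-fold without centring (0.58), with quantile normalization (0.58) and with the trend on level removed (0.55), and Cdh5 with all probe sets averaged (0.37). The list median was 0.37 with all probe sets averaged, 0.34 without the _s_at, _x_at and _a_at types and 0.29 with a filter at the 75th percentile. The summed signal was 4899 in the null and 4248 in wild type. By brightest probe set, the 4 measured Schwann cell markers were all below 0 and within 1.5-fold (median -0.22, summed signal 5119 in the null and 5755 in wild type). Pmp22 was at -0.089 and Mbp at -0.18. The 4 other measured Mbp probe sets ran from -0.55 to 0.61, and with all its probe sets averaged Mbp was at 0.017. Egr2, below the filter and so not counted, was at 0.32. The neuron markers had a median of -0.14 (Stmn2 -0.16, Map2 -0.014) and skeletal muscle 0.041 (Acta1 0.041, Tnnc2 -0.014). The radial glia median was 0.12. By brightest probe set, Fabp7 (-0.21) and Sox2 (-0.034) were below 0, and Nes (0.25), Pax6 (0.19) and Slc1a3 (0.12) were above it. Ameloblasts and gland epithelium also express several of the 8 genes. Of 5 measured enamel and salivary gland markers 3 were beyond 1.5-fold lower, Dcpp1 (-1.17), Ambn (-0.80) and Amelx (-0.59), and the median was -0.59. Dcpp1, at 78.4 in the null and 179 in wild type, was measured through the wild-type array alone, and its difference became 0.0094 when the floor was raised to the median, which left 2 genes lower. No marker of these lists was at 0, and their part in the values of the 8 genes was not tested.

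Alternative processing settings moved the gene differences to varying extents. With all probe sets averaged, those below the floor on both arrays entered with almost no difference by construction, as for Trp63 and Lama3. Over 9 alternative settings, Itga6 ran from 0.045 to 0.11 and Trp63 from -0.22, with all its probe sets averaged, to -0.080. Over 7 settings each, Lamb3 ran from 0.023 to 0.057, Lama3 from -0.12 to -0.043, Itgb4 from -0.17 to -0.13 and Col17a1 from -0.62 to -0.58. Bnc1 ran from -0.49 to -0.061, its value nearest 0 being that with the floor at the median. Dst ran from -0.18 to 0.033, and it was above 0 only with all its probe sets averaged.

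**Figure D4:**
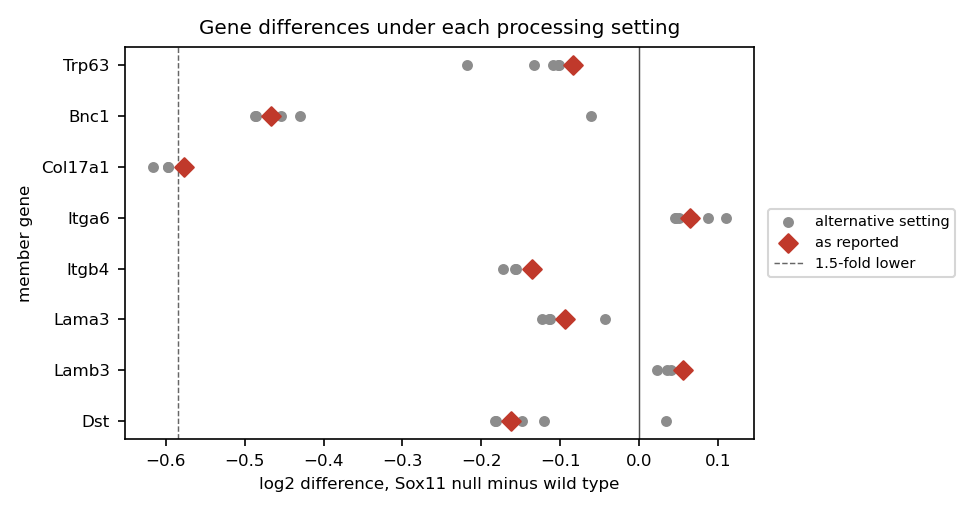
Log2 difference, Sox11 null minus wild type, of each of the 8 genes as reported (diamonds) and under each alternative setting (grey points), with a dashed line at 1.5-fold lower. Col17a1 lies at that line with every setting that could read it, and the other genes stay between it and 0.11.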

How the data were processed

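RNA of 2 embryos was measured on 2 Affymetrix mouse arrays, 1 per genotype. Per the labels' protocols, total RNA was made into biotinylated cRNA. The deposited table holds 1 linear signal intensity per probe set, and per the submitters' processing notes Affymetrix Expression Console was used. How it summarised or filtered probes is not stated there. Both arrays had a 2% trimmed mean of 500.002. The 64 control probe sets were left out. Symbols of 34741 probe sets were updated through RefSeq (GRCm38.p6). Signals were taken to log2. The null array was raised by 0.020, which set their median difference over measured genes to 0, and values below the 25th percentile were raised to it. Each gene was read by its brightest probe set. There were no replicates, so no test was run, and the number of arrays limits the precision. The code was tested on simulated data.

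The members and lists were chosen with earlier results of these data known. All member probe sets and Sox11 are named, with up to 3 genes per list and direction past 1.5-fold (the 2 brightest in a list with none). Other list genes were named after their values were seen. Python 3.11.15, numpy 2.4.6, pandas 2.3.3 and statsmodels 0.14.6 were used. The alternatives are those of the closing section.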

Additional observations from a re-analysis of the deposited data

How the results depend on the processing

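A value counted as moved when it changed by over 0.39, the SD between probe sets of a gene, which is no replicate spread, a median by that SD over the root of the number of genes, and a count by over 1.5 times. Of 63 gene values 62 and of 68 probe set values 67 did not move, the exception in both being Bnc1 with the floor at the array median. Of 371 values for lists and for counts, 30 moved. Among them, the skeletal muscle median was 0.22 with quantile normalization and the basement membrane median 0.090 with all probe sets averaged. The number of the 8 genes beyond 1.5-fold lower, 0 as reported, was 1 with no centring, 1 with the loess trend removed and 1 with quantile normalization, Col17a1 each time. It was 0 in the other settings, at a threshold of 2-fold too, but the filter at the 75th percentile kept 3 of the 8 genes and the restriction on probe set types 4, Col17a1 in neither. The hemidesmosome partner median was -0.029 with all probe sets averaged and -0.017 without the _s_at, _x_at and _a_at types. The suprabasal markers had 5 of 5 genes lower with a filter at the 75th percentile. Their median was -1.13 with the floor at the median, -1.63 with that filter and -1.06 with all probe sets averaged. Over all measured genes, the share 1.5-fold lower was 3.24% as reported, 2.13% with the floor at the median, 5.02% with no filter and 1.84% with the 75th percentile filter, where 1.77% were higher. Without the _s_at, _x_at and _a_at types, Col17a1, Itgb4 and Lamb3 had no probe set, and Lama3 had one below the floor on both arrays. No paired analysis was possible because each genotype has 1 sample, and for the same reason no replicate could be left out.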
